A study of Rattus norvegicus with 24 samples.

Results

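The glycine (Gly), glutamate (Glu) and aspartate (Asp) tRNA features are the rows of the small RNA tables whose names give a tRNA number followed by Gly, Glu or Asp and an anticodon. Each row counts the short reads assigned to 1 annotated tRNA gene copy, and here a copy is called a feature. The cortex count table held 65 such features among 444 tRNA features and 1172 rows in all. Of these, 51 were also listed in both CPM tables (reads scaled so that every library has the same total), which held 250 tRNA features and 595 rows in common. The 51 features covered 6 anticodons: 9 Gly-GCC, 5 Gly-CCC, 7 Gly-TCC, 8 Glu-CTC, 10 Glu-TTC and 12 Asp-GTC. The 14 features outside the CPM tables, including the single Asp-ATC feature, had 0 reads in all 12 cortex libraries.

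The libraries came from 12 adult male Sprague-Dawley rats killed 3 months after surgery, with 1 small RNA library from the perilesional cortex and 1 from the ipsilateral thalamus of each animal. In the TBI group, 6 rats had received a lateral fluid-percussion injury, a pressure pulse of fluid onto the exposed dura that models traumatic brain injury. The 6 sham-operated controls had the anaesthesia and the craniectomy without the impact. The injured rats had been picked for signs of chronic inflammation on magnetic resonance imaging, so they stand for that subset of injured rats, and the RNA of each region was pooled from several pieces of tissue of 1 animal.

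Transfer RNAs carry amino acids to the ribosome and can be cut into shorter fragments. Under cellular stress the nuclease angiogenin cuts mature tRNAs in the anticodon loop and leaves long fragments known as tiRNAs, and other enzymes make shorter tRNA-derived fragments (tRFs). Long fragments from the leading end of Gly and Glu tRNAs are known for their high abundance in small RNA libraries of many tissues and body fluids, and such fragments have been tied to the control of translation. The deposited rows do not record where a read starts or ends, so long and short fragments of a tRNA were counted together, and CPM counts reads without scaling by length.

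The tables held 847300 to 4501868 reads per cortex library and 615608 to 4530850 per thalamus library, of which 88440 to 468882 and 77575 to 471518 were tRNA reads. At this depth 1 read was worth 0.222 to 1.18 CPM in cortex and 0.221 to 1.62 CPM in thalamus. The oligodendrocyte miRNAs (3 of 3 listed) summed to between 2488 and 4100 CPM in cortex and between 10833 and 14632 CPM in thalamus, with no overlap between regions. The neuronal miRNAs (4 of 4) summed to between 215914 and 394649 CPM in cortex and between 127240 and 231829 CPM in thalamus. The red blood cell list (3 of 4 in the tables) never summed above 85.0 CPM and the liver miRNA rno-miR-122-5p never exceeded 16.0 CPM. No listed marker was at 0 in all libraries of a group.

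Gly, Glu and Asp fragments made up most of the tRNA reads in every library. Together they took 73.2% ± 1.49 (SD, n = 6) of the tRNA reads in the cortex of TBI rats and 73.2% ± 2.35 (SD, n = 6) in that of sham rats. In the thalamus the share was 70.1% ± 1.27 (SD, n = 6) after TBI and 70.2% ± 1.22 (SD, n = 6) after sham operation. The share was lower in the thalamus than in the cortex of the same animal in 11 of 12 rats, and TBI and sham rats overlapped in both regions. As a part of all reads in the table it ranged from 4.32% to 13.5% over the 24 libraries.

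**Figure D1:**
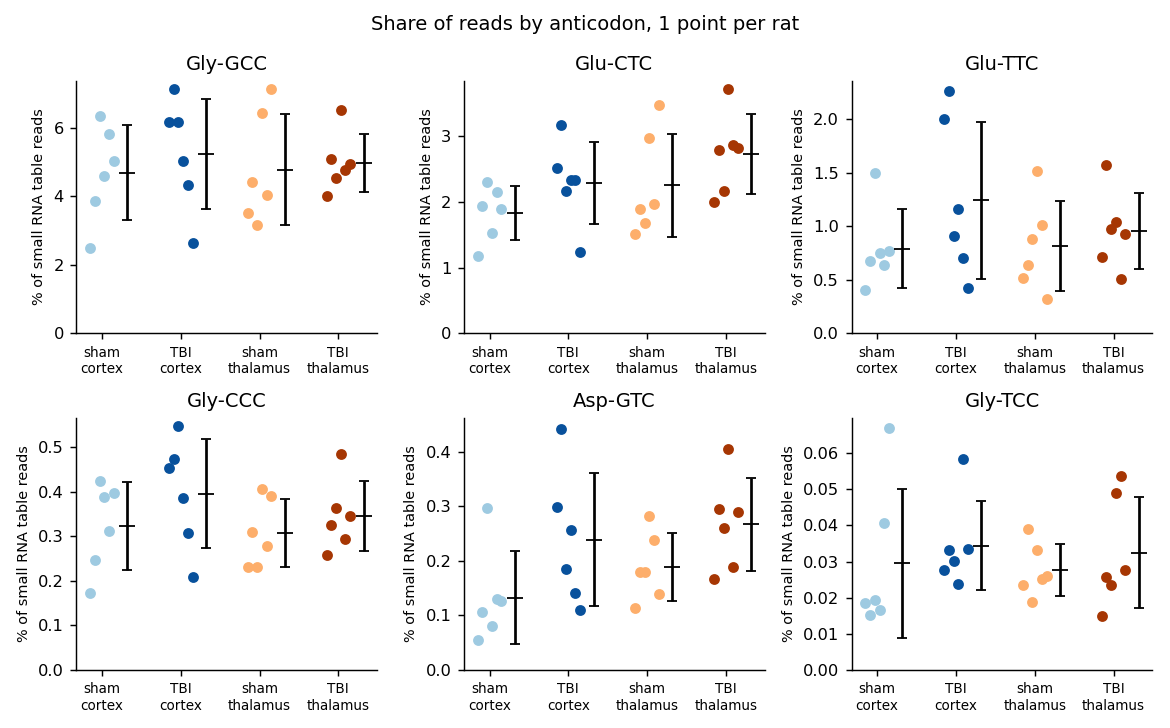
Share of the reads in the small RNA table (percent, vertical axis, starting at 0 and differing between panels) for each of the 6 anticodons. Each point is 1 rat, with sham-operated and TBI rats side by side for cortex and thalamus, and the bar is the mean ± SD of 6 rats; TBI and sham points overlap in every panel and region.

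Gly-GCC was the most abundant of 46 anticodons in each of the 24 libraries, and Glu-CTC was the next in each. Gly-GCC took 5.24% ± 1.61 (SD, n = 6) of the table in TBI cortex and 4.68% ± 1.39 (SD, n = 6) in sham cortex. In thalamus it took 4.98% ± 0.845 (SD, n = 6) after TBI and 4.78% ± 1.62 (SD, n = 6) after sham operation. Rats of 1 group differed more than the group means did, since sham cortex alone ran from 2.49% in rat 26 to 6.34% in rat 34.

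Glu-CTC took 2.30% ± 0.626 (SD, n = 6) of the table in TBI cortex and 1.83% ± 0.416 (SD, n = 6) in sham cortex. The corresponding thalamus values were 2.73% ± 0.610 (SD, n = 6) and 2.25% ± 0.789 (SD, n = 6). Glu-TTC, the other Glu anticodon, ranked 4th by mean level in both regions and was less even. It took 1.24% ± 0.735 (SD, n = 6) in TBI cortex, where rats 22 and 24 held 2.00% and 2.26% and the other 4 rats at most 1.16%. In sham cortex it took 0.786% ± 0.370 (SD, n = 6), with rat 34 highest at 1.49%. In thalamus it took 0.955% ± 0.359 (SD, n = 6) after TBI and 0.815% ± 0.424 (SD, n = 6) after sham operation.

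The other 3 anticodons each stayed under 1% of the table. Gly-CCC ranged from 0.172% to 0.547% in cortex and from 0.230% to 0.485% in thalamus. Asp-GTC ranged from 0.0549% to 0.443% in cortex and from 0.114% to 0.405% in thalamus. Gly-TCC was the least abundant, between 0.0148% and 0.0670% over all 24 libraries, which corresponds to 162 to 942 reads per library.

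Within an anticodon, several features carried nearly the same count in every library. The squared difference between the counts of 2 features divided by their sum averages about 1 when they differ by counting error alone, and this value was at most 2 in cortex for 40 of the 206 pairs of features that share an anticodon. Of these 40 pairs, 34 were also at or below 2 in thalamus. For tRNA2163-GlyGCC and tRNA1668-GlyGCC, the most abundant Gly-GCC features, it was 1.45 in cortex and 0.460 in thalamus. The pair tRNA687-GlyCCC and tRNA2763-GlyCCC gave 0.859 in cortex and 0.668 in thalamus, whereas tRNA687-GlyCCC and tRNA4110-GlyCCC, which share that anticodon, gave 6145 and 4633. Such features cannot be told apart by their counts, so they are not independent members, and which gene copy their reads came from is uncertain. No 2 listed members had identical counts over the 12 cortex libraries. No member was at counting error in both regions with the feature of another anticodon that was closest to it in cortex. Other features of other anticodons were not compared in thalamus.

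**Figure D2:**
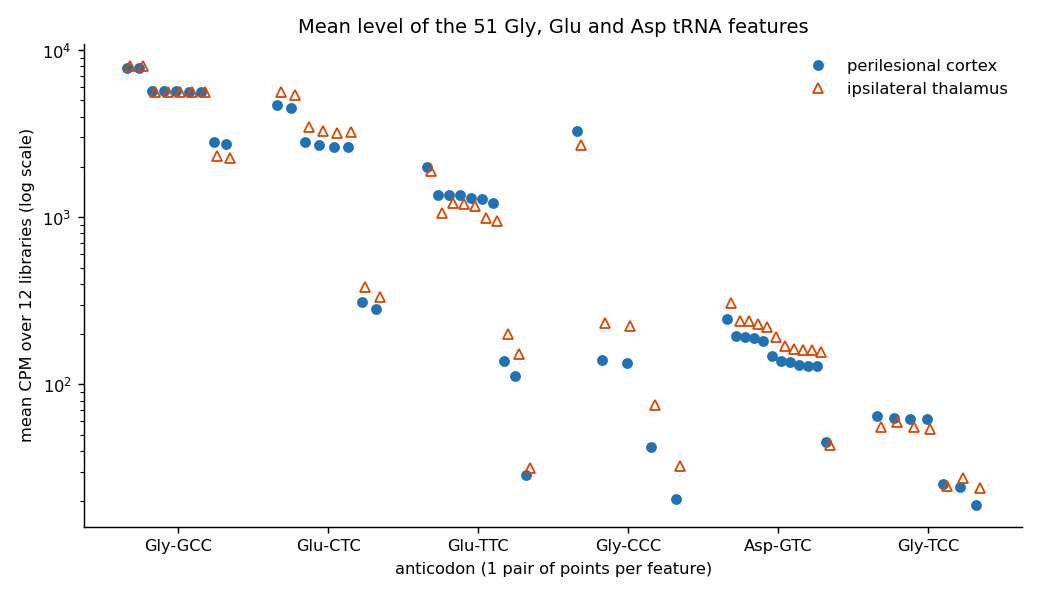
Mean CPM over the 12 libraries of each region (log scale) for each of the 51 features, ordered within an anticodon by cortex level; filled circles are perilesional cortex and open triangles ipsilateral thalamus. Features of an anticodon fall on steps of nearly equal height, and within Gly-CCC the tall first feature lies lower in thalamus while the 4 small ones lie higher.

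The steps differed between anticodons. Gly-GCC had a step of 2 features at 7859 and 7866 CPM in cortex, a step of 5 between 5634 and 5674 CPM, and a pair, tRNA2182-GlyGCC and tRNA2180-GlyGCC, at 2836 and 2756 CPM. Gly-CCC was dominated by tRNA4110-GlyCCC, with a mean of 3258 CPM and 90.6% of the Gly-CCC reads in cortex. The 4 other Gly-CCC features had cortex means between 20.7 and 140 CPM. Glu-CTC was led by tRNA2187-GluCTC at 4711 CPM, and Glu-TTC by tRNA3881-GluTTC at 1991 CPM. Among Asp-GTC features, 11 of 12 lay between 128 and 246 CPM, with tRNA8813-AspGTC highest. In Gly-TCC the 4 leading features lay between 62.0 and 64.3 CPM, with tRNA3808-GlyTCC highest in cortex and tRNA3822-GlyTCC highest in thalamus at 59.3 CPM.

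The first comparison asked whether the injury changed these fragments in the perilesional cortex 3 months later. None of the 6 anticodons differed between TBI and sham rats in edgeR's quasi-likelihood test with Benjamini-Hochberg adjustment over 417 rows (miRNAs and tRNA reads summed by anticodon), and 0 of 6 had an unadjusted p under 0.05. In that fit 6.24% of all rows passed, 16 of the 26 calls being higher after TBI, and 90 of the 417 had an unadjusted p under 0.05. DESeq2 also called 0 of 6. In cortex the edgeR log2 differences were scaled by TMM factors per library, whereas the CPM levels and rat counts given beside them were not. These factors ran from 0.766 to 1.11 in sham cortex and from 0.969 to 1.22 in TBI cortex. Plain CPM therefore tends to set TBI rats higher against sham rats than the TMM scale does. In bulk tissue, fewer cells of a type and less RNA per cell cannot be told apart, here and in every comparison that follows.

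The largest of these log2 differences in cortex was that of Asp-GTC. Its level in sham cortex was 549 CPM at the lowest, 1161 at the median and 2967 at the highest, and in TBI cortex 1093, 2215 and 4432. Only rats 22 and 24 of the TBI group exceeded every sham rat, so the groups overlapped. The log2 difference was 0.70 (SE 0.37, 95% interval −0.10 to 1.499, edgeR adjusted p = 0.280). All 12 Asp-GTC features, some of them not independent of each other, had log2 differences above 0, from 0.51 to 0.66, and 0 passed. tRNA2458-AspGTC had the largest, 0.66 (SE 0.34, edgeR adjusted p = 0.298), and tRNA8813-AspGTC the smallest unadjusted p, with 0.60 (SE 0.29, edgeR adjusted p = 0.265).

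Glu-TTC had the next largest value. It ran from 4070 CPM through a median of 7071 to 14942 in sham cortex and from 4241 through 10306 to 22599 in TBI cortex, again with overlap. The log2 difference was 0.50 (SE 0.37, 95% interval −0.29 to 1.28, edgeR adjusted p = 0.420). All 10 Glu-TTC features lay above 0, between 0.02 and 0.64. The highest was tRNA4121-GluTTC. It had 50.9, 85.5 and 170 CPM as lowest, median and highest in sham cortex and 65.1, 190 and 262 CPM in TBI cortex. In CPM without TMM factors, 4 of 6 TBI rats lay above every sham rat. With TMM factors the log2 difference of tRNA4121-GluTTC was 0.64 (SE 0.26, unadjusted p = 0.0274, edgeR adjusted p = 0.215).

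For the 3 Gly anticodons and Glu-CTC, the intervals lay around 0. Gly-GCC had a log2 difference of −0.01 (SE 0.23, 95% interval −0.51 to 0.49, edgeR adjusted p = 0.992), which spans a fold from 0.704 to 1.40. Glu-CTC had 0.15 (95% interval −0.29 to 0.58), Gly-CCC 0.12 (−0.38 to 0.62) and Gly-TCC 0.10 (−0.62 to 0.82). These intervals do not show that the levels were equal.

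Of the 51 features, 0 passed in cortex, where 4.34% of all 645 features tested did. At an unadjusted p under 0.05 there were 2 of the 51, beside 119 of all 645. DESeq2 called 0 of 51, with 3 under an unadjusted 0.05. The count of 2 depended on single rats: it was 15 without sham rat 34, 14 without TBI rat 63, 5 without TBI rat 45 or 56, 1 without TBI rat 24 or sham rat 38 or 50, and 0 without TBI rat 52, with 0 past the adjusted threshold each time. By library size only it was 10, and with limma on log2(CPM + 1) it was 15. For these other fits the count over all features at an unadjusted 0.05 is not given. The 51 features had a median log2 difference of 0.10, beside −0.00 over all features and 0.09 over the 223 other tRNA features. Of those 223, 13 passed, all higher after TBI. The second feature under an unadjusted 0.05, beside tRNA4121-GluTTC, was tRNA2180-GlyGCC. It had 1674, 2889 and 4499 CPM as lowest, median and highest in sham cortex and 1315, 2770 and 3155 CPM in TBI cortex, with a log2 difference of −0.53 (SE 0.22, edgeR adjusted p = 0.215).

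The call for 1 Gly-CCC feature depended on the scaling. tRNA687-GlyCCC had 92.7, 108 and 135 CPM as lowest, median and highest in sham cortex and 124, 173 and 205 CPM in TBI cortex, with 5 of 6 TBI rats above every sham rat. With TMM factors its log2 difference was 0.33 (SE 0.16, edgeR adjusted p = 0.264). Scaled by library size alone it was 0.63 (SE 0.18, edgeR adjusted p = 0.0369), and limma on log2(CPM + 1) gave 0.62 (adjusted p = 0.0343). Without TMM factors the median log2 difference of all features was 0.30 in place of −0.00, and the calls were 52 higher and 3 lower in place of 18 and 10.

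The summed marker levels differed between TBI and sham cortex. The neuronal list summed to between 269629 and 394649 CPM in sham cortex and between 215914 and 298062 CPM in TBI cortex. Most of that difference was rno-miR-128-3p, with means of 241180 and 164456 CPM in sham and TBI cortex, while rno-miR-9a-5p had 87683 and 82853, rno-miR-124-3p 5752 and 7101 and rno-miR-138-5p 973 and 1038 CPM. The oligodendrocyte list ran from 2488 to 3181 CPM and from 3182 to 4100 CPM, and the leukocyte list (4 of 4 listed) from 600 to 1002 CPM and from 708 to 1659 CPM. The neuronal and leukocyte ranges overlapped and those of oligodendrocytes met without overlap. Their part in the cortex values above was not tested.

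In the ipsilateral thalamus, a region connected with the injured cortex and remote from the impact, the same question gave 0 calls. None of the 6 anticodons passed in limma on log2(CPM + 1) with Benjamini-Hochberg adjustment over 420 rows, of which 0.952% passed, all higher after TBI. At an unadjusted p under 0.05 there were 0 of 6, beside 25 of all 420 rows, and edgeR on the recovered reads called 0 of 6. All 6 log2 differences lay above 0, from 0.11 for Gly-GCC to 0.51 for Asp-GTC, with a median of 0.24. Of the 40 other tRNA anticodons, 31 also lay above 0, with a median of 0.30. Asp-GTC had 1135, 1800 and 2818 CPM as lowest, median and highest in sham thalamus and 1662, 2752 and 4048 CPM in TBI thalamus, with 3 TBI rats above every sham rat. Its difference on this scale was 0.51 (SE 0.26, 95% interval −0.05 to 1.06, limma adjusted p = 0.790).

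Glu-CTC and Glu-TTC had thalamus values of 0.32 (95% interval −0.15 to 0.78) and 0.31 (95% interval −0.42 to 1.05). Gly-CCC had 0.17 (−0.26 to 0.60), Gly-TCC 0.14 (−0.51 to 0.78) and Gly-GCC 0.11 (−0.32 to 0.54). The Gly-GCC interval corresponds to a fold from 0.800 to 1.45 on the log2(CPM + 1) scale.

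Of the 51 features, 0 passed in thalamus, where 2.19% of all 640 features tested did. The single feature under an unadjusted 0.05, beside 51 of all 640 features, was tRNA8813-AspGTC, the most abundant Asp-GTC copy. It ran from 147 through a median of 239 to 377 CPM in sham thalamus and from 201 through 379 to 548 CPM in TBI thalamus, with a log2 difference of 0.62 (SE 0.28, unadjusted p = 0.0425, limma adjusted p = 0.610). edgeR on the recovered reads also called 0 of 51, with 1 under an unadjusted 0.05. This count of 1 became 9 without sham rat 38, 8 without TBI rat 22, 3 without TBI rat 56 or sham rat 50 or 55, and 0 without any of the other 7 rats, with 0 past the adjusted threshold each time. The features had a median log2 difference of 0.30, beside 0.23 over the 215 other tRNA features, of which 12 passed, and 0.06 over all features. Among Gly features the smallest p was that of tRNA687-GlyCCC, at 0.31 (SE 0.23, limma adjusted p = 0.772), and the largest difference that of tRNA7274-GlyCCC, at −0.32 (SE 0.33, limma adjusted p = 0.857). Among Glu features the smallest p and the largest difference were those of tRNA16347-GluCTC, at 0.35 (SE 0.24, limma adjusted p = 0.772), and tRNA4121-GluTTC, at 0.37 (SE 0.30, limma adjusted p = 0.789).

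The marker sums of the thalamus overlapped between the groups. The neuronal list ran from 181457 to 231829 CPM in sham and from 127240 to 210006 CPM in TBI rats, the oligodendrocyte list from 10833 to 13790 CPM and from 10905 to 14632 CPM, and the leukocyte list from 619 to 1269 CPM and from 851 to 2038 CPM. Within the neuronal list rno-miR-138-5p did not overlap, with 735 to 997 CPM in sham and 417 to 697 CPM in TBI rats. The means in sham and TBI thalamus were 122403 and 100492 CPM for rno-miR-128-3p. They were 72301 and 64404 CPM for rno-miR-9a-5p and 6230 and 4708 CPM for rno-miR-124-3p, and the ranges of these miRNAs overlapped. The part of the marker levels in the thalamus values was not tested.

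**Figure D3:**
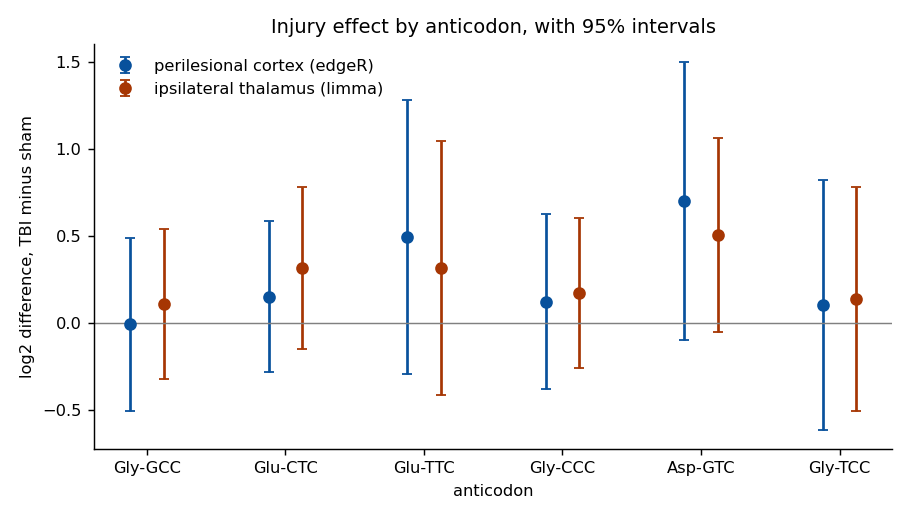
Log2 difference of TBI minus sham rats (vertical axis) with its 95% interval for reads summed by anticodon, in perilesional cortex (blue, edgeR) and ipsilateral thalamus (brown, limma on log2(CPM + 1)). Each of the 12 intervals includes 0, and in cortex the intervals of Asp-GTC and Glu-TTC are the widest of the 6.

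The injury effects in the 2 regions were compared within 1 limma model of all 24 libraries. The difference between them passed for 0 of 6 anticodons and 0 of 51 features, and 0% of 391 rows and 0% of 595 features passed at all. No member had an unadjusted p under 0.05, beside 15 of the 391 rows and 19 of the 595 features. For members, edgeR on reads gave 0 as well. For Asp-GTC the difference of the effects, thalamus minus cortex, was −0.39 on the log2 scale (95% interval −1.40 to 0.62). For Gly-GCC it was −0.04 (95% interval −0.74 to 0.65). Over all 391 rows the median of this difference was −0.22 and 328 rows lay below 0, in a fit without TMM factors.

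The next comparison set the thalamus against the cortex, averaged over TBI and sham rats, with the features of both tables rescaled to a common total. Summed by anticodon, 0 of 6 passed at limma's adjusted threshold and 0 of 6 at an unadjusted 0.05. Of the 391 rows, 41.2% passed the adjusted threshold and 192 were under an unadjusted 0.05. Gly-GCC differed by 0.00 on the log2 scale (SE 0.17, 95% interval −0.35 to 0.35). Glu-TTC had −0.12 (95% interval −0.68 to 0.45), Gly-CCC −0.10 (−0.45 to 0.25), Gly-TCC −0.03 (−0.52 to 0.47) and Glu-CTC 0.27 (−0.06 to 0.59). On this scale the median of all rows was 0.25, and with TMM factors it was 0.04, so Gly-GCC stood at −0.21 with TMM (limma adjusted p = 0.406).

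Asp-GTC had the largest regional value, 0.45 (SE 0.25, 95% interval −0.05 to 0.96, limma adjusted p = 0.142), and was higher in thalamus in 9 of 12 rats. In cortex its 12 libraries ran from 549 to 4432 CPM and in thalamus from 1135 to 4048 CPM. The outcome depended on 1 rat: without rat 34, whose cortex was the highest of the sham group, the difference was 0.59 (limma adjusted p = 0.0477). With TMM factors and all rats it was 0.24 (limma adjusted p = 0.433). Among Asp-GTC features, tRNA8741-AspGTC had both the smallest p and the largest difference, 0.53 (SE 0.24, limma adjusted p = 0.0898), and 0.67 (limma adjusted p = 0.0287) without rat 34.

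Single features showed what the sums did not. Of the 51 features, 4 passed (7.84%), all higher in thalamus, where 34.8% of all 595 features did. The difference between these shares was not tested, and with TMM factors 5 of 51 members and 133 of 595 features passed. The 4 were tRNA687-GlyCCC, tRNA2763-GlyCCC, tRNA7274-GlyCCC and tRNA4121-GluTTC. By amino acid, 3 of 21 Gly, 1 of 18 Glu and 0 of 12 Asp features passed. All 4 are minor copies of their anticodon. In the paired fit, with the rat as a block, 6 features passed, tRNA7280-GlyCCC (0.59, limma adjusted p = 0.0245) and tRNA4117-GluTTC (0.49, limma adjusted p = 0.0260) being added. In that fit 239 of all 595 features passed.

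tRNA687-GlyCCC had 92.7 to 135 CPM in sham cortex and 148, 194 and 330 CPM as lowest, median and highest in sham thalamus. In TBI rats it had 124 to 205 CPM in cortex and 217, 239 and 328 CPM in thalamus. It was higher in thalamus in 12 of 12 rats, with no overlap between regions within either group. The difference was 0.74 on the log2 scale (SE 0.14, 95% interval 0.46 to 1.02, limma adjusted p = 0.000126), or 1.67-fold.

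Its counting-error partner tRNA2763-GlyCCC rose to the same extent, by 0.74 (SE 0.15, limma adjusted p = 0.000331), also in 12 of 12 rats. In sham rats it had 84.0, 107 and 151 CPM in cortex and 136, 185 and 312 CPM in thalamus, and in TBI rats 103, 154 and 205 CPM and 203, 228 and 327 CPM. These values repeat those of tRNA687-GlyCCC and add no independent evidence.

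tRNA7274-GlyCCC, with 27 to 293 reads per library, was 0.77 higher in thalamus (SE 0.22, 95% interval 0.31 to 1.23, limma adjusted p = 0.0103), in 9 of 12 rats. It had 19.9, 41.6 and 54.8 CPM in sham cortex and 35.8, 87.2 and 123 CPM in sham thalamus, and 24.1, 45.6 and 62.2 CPM in TBI cortex and 42.9, 57.5 and 121 CPM in TBI thalamus. The 6 sham rats were all higher in thalamus, and 3 of 6 TBI rats were.

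tRNA4121-GluTTC was 0.63 higher in thalamus (SE 0.23, 95% interval 0.15 to 1.11, limma adjusted p = 0.0379), in 8 of 12 rats. Its thalamus levels were 115, 180 and 217 CPM in sham rats and 119, 217 and 398 CPM in TBI rats. The call was lost when rat 26, 32, 38, 45, 50 or 63 was left out, with limma adjusted p-values from 0.0607 to 0.0954.

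**Figure D4:**
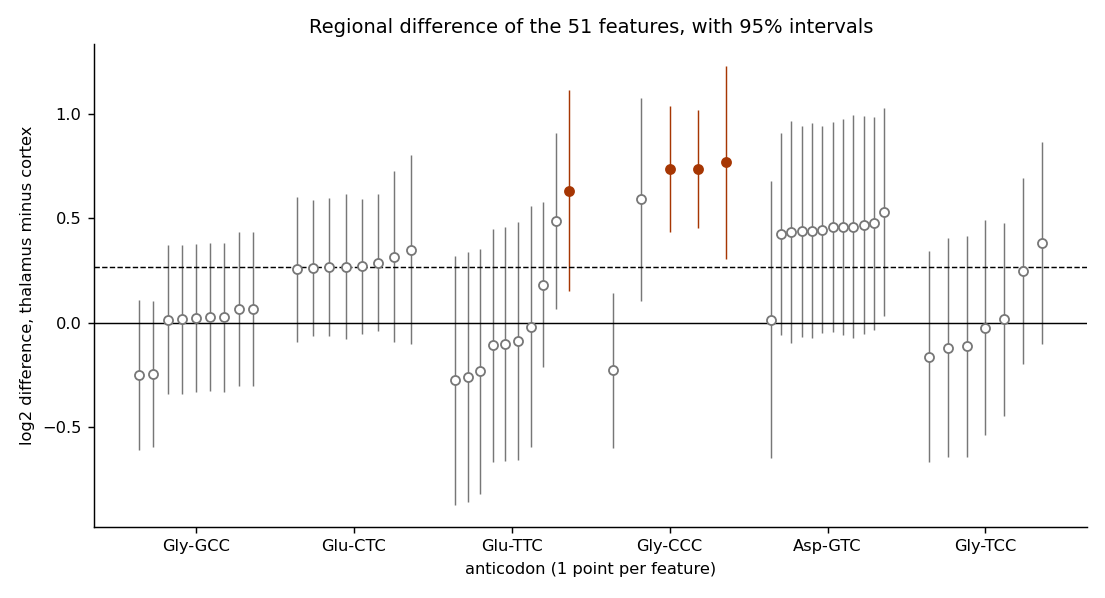
Log2 difference of thalamus minus cortex (vertical axis) with its 95% interval for each of the 51 features, grouped by anticodon. Filled brown points have a limma adjusted p under 0.05; the dashed line is the median of all 595 features, 0.27, and only 3 Gly-CCC features and 1 Glu-TTC feature are filled.

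Other Gly copies had lower values in thalamus, which passed only when the scale was moved. tRNA4110-GlyCCC had a regional difference of −0.23 (SE 0.18, limma adjusted p = 0.337), tRNA2180-GlyGCC −0.25 (SE 0.17, limma adjusted p = 0.269) and tRNA2182-GlyGCC −0.25. The median of all 595 features was 0.27 on this scale and 0.02 with TMM factors. With TMM, 5 members passed: tRNA687-GlyCCC and tRNA2763-GlyCCC higher in thalamus, each by 0.49, and tRNA4110-GlyCCC, tRNA2180-GlyGCC and tRNA2182-GlyGCC lower, by −0.48, −0.50 and −0.50 (limma adjusted p = 0.0249, 0.0179 and 0.0216). Over all features the calls were then 71 higher and 62 lower, in place of 172 and 35. tRNA4121-GluTTC (0.38, limma adjusted p = 0.174) and tRNA7274-GlyCCC (0.52, limma adjusted p = 0.0520) no longer passed with TMM. tRNA7274-GlyCCC did pass in edgeR on reads with TMM (0.56, adjusted p = 0.0334) and with the rat as a block and TMM (0.52, limma adjusted p = 0.0352). In that paired fit, chosen after seeing the data, 8 members passed, with tRNA4050-GluTTC and tRNA5628-GluTTC lower in thalamus by −0.53 and −0.52 (limma adjusted p = 0.0475 and 0.0471). Over all 595 features 164 passed in it.

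The other leading copies did not pass in the region fit. tRNA2163-GlyGCC and tRNA1668-GlyGCC had log2 differences of 0.06 each (SE 0.18 each), tRNA2187-GluCTC 0.27 (SE 0.17), tRNA3881-GluTTC −0.02 (SE 0.28) and tRNA8813-AspGTC 0.43 (SE 0.24). tRNA8813-AspGTC was higher in thalamus in 8 of 12 rats. The 8 Glu-CTC features all lay between 0.26 and 0.35, and the 7 Gly-TCC features between −0.16 and 0.38, with 0 calls in each.

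The share that a feature takes of its own anticodon does not depend on the scale of the library. These shares were formed after the levels had been seen and are given as a description. Shares within an anticodon add up to its whole, so a fall of one share and a rise of another are not independent results. tRNA4110-GlyCCC held 88.0% to 93.8% of the Gly-CCC reads in sham cortex and 76.4% to 87.9% in sham thalamus. In TBI rats it held 87.4% to 93.2% in cortex and 80.5% to 86.3% in thalamus. The share was lower in thalamus in 12 of 12 rats, and only the sham thalamus of rat 55, at 87.9%, reached into the cortex range. The share of tRNA687-GlyCCC and tRNA2763-GlyCCC together was higher in thalamus in 12 of 12 rats, with means of 7.36% ± 2.30 (SD, n = 6) in sham cortex and 14.0% ± 4.46 (SD, n = 6) in sham thalamus. In TBI rats the means were 8.80% ± 2.14 (SD, n = 6) and 14.7% ± 1.96 (SD, n = 6).

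**Figure D5:**
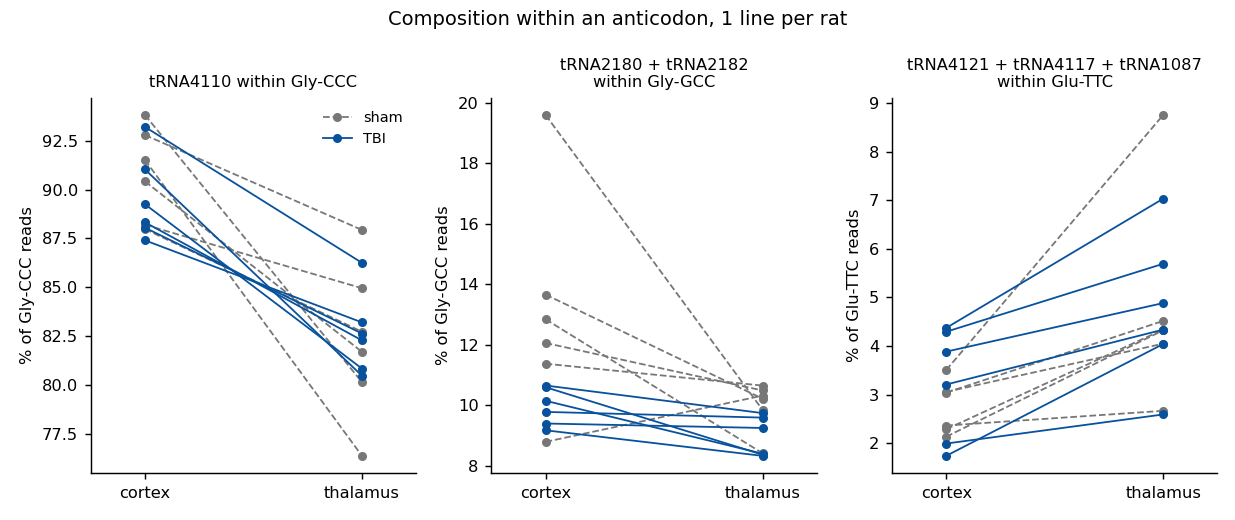
Percent of the reads of an anticodon held by the named features in the cortex and thalamus of each rat, 1 line per rat, TBI solid and sham dashed; the vertical axes do not start at 0. The lines fall in 12 of 12 rats for tRNA4110 within Gly-CCC and in 11 of 12 for tRNA2180 and tRNA2182 within Gly-GCC, and rise in 12 of 12 for the 3 minor Glu-TTC features.

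Within Gly-GCC, tRNA2180-GlyGCC and tRNA2182-GlyGCC together held less in thalamus than in cortex in 11 of 12 rats. Their share was 9.95% ± 0.615 (SD, n = 6) in TBI cortex and 8.94% ± 0.658 (SD, n = 6) in TBI thalamus. In sham rats it was 13.0% ± 3.61 (SD, n = 6) in cortex, where rat 38 held 19.6% and rat 50 8.79%, and 9.98% ± 0.819 (SD, n = 6) in thalamus. The 2 leading features had group means from 31.3% to 32.9%, with single rats from 27.0% to 34.8%, and held more in thalamus in 9 of 12 rats, including 6 of 6 TBI rats.

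Within Glu-TTC, the 3 minor features tRNA4121-GluTTC, tRNA4117-GluTTC and tRNA1087-GluTTC held 2.73% ± 0.546 (SD, n = 6) of the reads in sham cortex and 4.78% ± 2.06 (SD, n = 6) in sham thalamus. In TBI rats the shares were 3.25% ± 1.15 (SD, n = 6) and 4.76% ± 1.51 (SD, n = 6), and thalamus was higher in 12 of 12 rats. The step of tRNA4050-GluTTC, tRNA5628-GluTTC and tRNA2138-GluTTC held less in thalamus in 11 of 12 rats, with 39.8% ± 3.44 (SD, n = 6) in sham cortex and 33.5% ± 1.72 (SD, n = 6) in sham thalamus. The oligodendrocyte and neuronal miRNA sums given above also differed between the regions, the neuronal ranges overlapping over all rats though not within TBI or sham rats. In sham rats rno-miR-128-3p had means of 241180 CPM in cortex and 122403 CPM in thalamus. The sham means of rno-miR-124-3p went the other way, at 5752 and 6230 CPM, while in TBI rats they were 7101 and 4708 CPM. The part of these markers in the shares was not tested.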

How the data were processed

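Small RNA libraries of 24 samples (12 rats, both regions) were sequenced by the authors' service provider, trimmed of adapters, checked with FastQC and mapped to the rat genome RGSC3.4; the aligner and tRNA annotation are not given in the sources used here. The authors deposited raw counts for cortex (miRNAs and tRNA features) and for thalamus (miRNAs), and for both regions CPM over the small RNAs they kept, without TMM factors. All CPM values of tRNA features came out as whole reads (tolerance 0.001) when multiplied by the ratio of count to CPM of the miRNAs, and these recovered reads served for depth, for comparing copies and for an edgeR alternative.

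Cortex counts were tested with edgeR 4.0.16 (filterByExpr, TMM, glmQLFTest). CPM values were tested with limma 3.58.1 on log2(CPM + 1), features needing 1 CPM in 6 libraries, with a trend, in thalamus alone and, rescaled over the 595 shared features, in all 24 libraries. This scale understates changes of low features. Benjamini-Hochberg adjustment ran over all rows, with a threshold of 0.05. R 4.3.3 and DESeq2 1.42.0 were used, and the fits were tested on simulated data. Only features with a small share of reads were changed in the simulation, so it did not cover the most abundant members. Alternatives were other scalings, filters, pseudocounts and tools, each rat left out, and the rat as a block. Libraries of 1 group never agreed within counting error (smallest chi-square per degree of freedom 45.0 over 60 pairs).

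The members, marker lists and tests were chosen with earlier results of these data known. Named are every anticodon, its most abundant feature in each region, every member past the threshold, and for each amino acid the feature with the smallest p and the largest change in each injury fit and the region fit. The remaining features were given as counts and ranges. Region labels pair by rat: both samples of a number come from 1 animal, and the deviations of the same rat correlated with a median r of 0.318 over 595 features (−0.238 to 0.644, above 0.1 in 8 of 12 rats). The deposited thalamus counts, which hold miRNAs alone, gave the ratio of count to CPM and the thalamus marker levels. No other deposited set of miRNAs alone was used.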

Additional observations from a re-analysis of the deposited data

Results flagged for a closer look

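In groups of 6 rats, a value was singled out when its gap to the nearest rat exceeded 0.625 of the range of the group (Dixon's 95% limit). Of 156 groups examined, 13 held such a value, and chance singles out about 1 in 20.

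Sham rat 34 stood above the other sham rats in cortex for Glu-TTC, at 1.49% of the table beside 0.770% in the next rat, and for Asp-GTC, at 0.297% beside 0.130%. In the same library tRNA2458-AspGTC was at 279 CPM and tRNA8741-AspGTC at 233 CPM, and there were 4.68 Asp-GTC reads per 100 Gly-GCC reads beside 2.73 in the next rat. Leaving this rat out moved the regional calls from 4 to 8 features and from 0 to 1 anticodon. It moved the cortex injury features under an unadjusted 0.05 from 2 to 15, with 0 past the adjusted threshold. With every rat, 119 of all 645 features were under an unadjusted 0.05 in that cortex fit. Over all 595 features the regional calls were then 204, beside 207 with every rat. Over the 391 rows summed by anticodon they were 150, beside 161.

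Sham rat 55 stood apart in thalamus in the composition of Glu-TTC. Its 3 minor features held 8.76% beside 4.52% in the next rat, and tRNA3881-GluTTC, tRNA3402-GluTTC, tRNA2018-GluTTC and tRNA5785-GluTTC together held 54.97% beside 60.9%. The level of tRNA4121-GluTTC was not raised there. At 115 CPM it was the lowest of the sham thalamus, as was tRNA3881-GluTTC at 552 CPM, in a library of 626552 reads. In that library tRNA2180-GlyGCC and tRNA2182-GlyGCC held 8.41% of Gly-GCC, the lowest sham value.

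Within TBI cortex, rat 56 was highest for Gly-TCC, at 0.0584% of the table beside 0.0334%, and for tRNA3808-GlyTCC, at 126 CPM beside 66.1 CPM. Sham rat 55 was higher in cortex on both, at 0.0670% and 145 CPM. The 5 Gly-GCC features of the middle step held 53.4% of Gly-GCC in the cortex of sham rat 38 beside 55.5% in the next rat. Gly-GCC took 44.2% of the tRNA reads in the cortex of TBI rat 45, the highest of that group. tRNA7274-GlyCCC was at 121 CPM in the thalamus of TBI rat 52 beside 69.3 CPM in the next rat.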

How the results depend on the processing

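In cortex, 0 of 51 features passed with TMM, and 1 passed by library size only and 1 by limma on log2(CPM + 1), tRNA687-GlyCCC in both. No injury alternative called an anticodon, and leaving out any 1 rat gave 0 injury calls among the members in either region. In the region comparison the replicate block, which pairs the regions of a rat, gave 6 features and 0 anticodons and changed no call of the other results, and the block with TMM factors, an alternative chosen after seeing the data, gave 8 (3 higher and 5 lower in thalamus). Over all 595 features the block called 239, and the block with TMM factors 164. Leaving out 1 rat gave 3 to 8 features and 0 to 1 anticodons, both highest without rat 34. Over all 595 features it gave 154 to 219 calls, and 204 when the rat left out was rat 34.

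Anticodons whose log2 difference changed sign had values near 0. Gly-GCC in cortex was 0.16 by library size only, 0.0039 with TMM from miRNAs alone and 0.15 with limma, in thalamus −0.005 with edgeR on recovered reads, and between regions −0.21 with TMM, −0.19 with edgeR and −0.21 with the block and TMM. The scalings move the median of all rows, and no other cause was tested. Over left-out rats, cortex values ran from −0.20 to 0.067 for Gly-GCC, −0.069 to 0.19 for Gly-CCC, −0.19 to 0.42 for Gly-TCC and −0.0083 to 0.22 for Glu-CTC. Thalamus Gly-TCC ran from −0.038 to 0.33, and the region values from −0.090 to 0.11 for Gly-GCC, −0.15 to 0.12 for Gly-TCC and −0.26 to 0.0078 for Glu-TTC.

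Calls over all rows varied more. In cortex the 28 features became 7 with a mean of at least 50 counts, 43 with DESeq2 and 55 by library size only, and 9 without sham rat 50. The 26 rows called in the fit by anticodon were 22 miRNAs and 4 other tRNA anticodons, and their number ran from 11 to 49. In thalamus the 14 features became 1 with a mean of at least 50 CPM and 23 with edgeR. The 4 rows called there in the fit by anticodon were 1 miRNA and 3 other tRNA anticodons, and their number ran from 1 to 5. The 207 regional features became 133 with TMM.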

Other observations

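The balance between the 2 Glu anticodons varied more between rats than between groups. In cortex there were 29.4 to 64.8 Glu-TTC reads per 100 Glu-CTC reads in sham rats and 29.9 to 79.5 in TBI rats. In thalamus there were 9.26 to 52.7 in sham rats and 17.7 to 56.03 in TBI rats, and the ratio was lower in thalamus than in cortex in 9 of 12 rats. Glu-CTC reads per 100 Gly-GCC reads were higher in thalamus in 10 of 12 rats, including 6 of 6 TBI rats, with means of 44.7 ± 6.39 (SD, n = 6) in TBI cortex and 54.5 ± 4.81 (SD, n = 6) in TBI thalamus.

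One share chosen after its values were seen did not overlap between TBI and sham rats. The 5 Gly-GCC features of the middle step held 53.4% to 56.6% of Gly-GCC in sham cortex and 56.9% to 59.7% in TBI cortex. In thalamus the ranges overlapped, at 56.2% to 58.1% and 56.9% to 59.5%. Of 26 comparisons of TBI with sham rats over 13 such shares and ratios in both regions, this was the 1 without overlap, and no test was run on it.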
